A study of Mus musculus with 4 samples.

Results

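Genes that drive mitosis and DNA replication are among the best known targets of p53 repression, and 52 of them were examined for p53 binding close to their transcription start sites (TSSs). The members were 30 genes of mitosis or its onset and 22 genes of the G1/S step or of DNA replication, out of 22367 protein-coding genes in the GENCODE M1 annotation of the mouse mm9 genome. The rule that chose them, as cell cycle genes that p53 is known to lower, uses no binding value. The choice was nevertheless made with earlier results of these data known. A member was scored as having a p53 peak when the centre of a peak lay within 10 kb of any of its annotated TSSs.

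The series comprises 4 ChIP-Seq libraries, in which DNA bound by a protein is recovered with an antibody and sequenced. p53 was recovered in 3 of them, from Ba/F3 cells left untreated, from Ba/F3 cells collected 3 h after a dose of 3 Gy of ionizing radiation (IR), and from untreated HPC7 cells, while the remaining library was for the histone mark H3K27ac in irradiated Ba/F3 cells. Ba/F3 cells are B cell progenitors and HPC7 cells multipotent hematopoietic progenitors, both mouse lines, and both carried a stable triple-FLAG-tagged MYSM1 under puromycin selection. There was 1 library per condition and 1 deposited list of 7384 p53 peaks, each 100 bp wide, so no value here has a spread between replicates and no test between conditions was possible. The list as used here holds positions and a peak number only, with no tag count or height, so the depth behind a peak is not known from it. It does not name the library in which a peak was called, and the study describes the peaks in one place as those of Ba/F3 and HPC7 cells and in another as those of Ba/F3 cells. The list alone therefore does not assign a peak, or the lack of one, to either line, and the study's own per-peak intensities and marks of peaks shared with HPC7 cells were not used here. The study orders its peaks by fold change in p53 binding after IR. The peak number is read here as that rank, with the largest gain first, which the list itself does not state. Group I peaks are those with raised binding after IR (89.9% of the list), Group II those with little change (2.17%) and Group III those with lowered binding (7.90%).

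p53 activates genes by binding a pair of decamer half-sites in their regulatory DNA. Its repression of cell cycle genes is thought to run largely through another path, in which p53 induces the kinase inhibitor p21, unphosphorylated pocket proteins accumulate, and the DREAM complex settles on promoters with an E2F site, typical of G1/S genes, or with a cell cycle genes homology region (CHR), typical of mitotic genes. Direct binding of p53 near such genes has been debated, and the peak list shows where p53 lay relative to them in hematopoietic progenitors.

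The sequences under the member peaks ranged from near-perfect p53 sites to CpG-rich promoter DNA with no recognizable site. A p53 site here is 2 adjoining half-sites that match the p53 consensus with at most 3 mismatches in 20 positions, both half-site cores intact, within 100 bp of the peak centre. Shown first are 6 of the 7 Group I peaks with such a site, in capitals, because there a peak and a p53 sequence coincide. The Group I peak of *Ccne1*, described later, is the other one. *Ect2* is written on the minus strand so that it can be read against *Mad2l1*. Coordinates are those of mm9.
*Mad2l1* (chr6:66476668-66476767, plus strand): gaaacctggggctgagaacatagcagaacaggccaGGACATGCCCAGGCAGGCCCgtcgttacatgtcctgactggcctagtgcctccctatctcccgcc
*Ect2* (chr3:27058639-27058738, minus strand): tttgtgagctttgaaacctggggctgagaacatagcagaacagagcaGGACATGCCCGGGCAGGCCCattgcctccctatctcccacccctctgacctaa
*Kif23* (chr9:61794775-61794874, plus strand): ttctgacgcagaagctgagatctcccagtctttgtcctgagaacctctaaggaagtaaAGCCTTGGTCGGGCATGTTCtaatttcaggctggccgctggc
*Ccne2* (chr4:11111431-11111530, plus strand): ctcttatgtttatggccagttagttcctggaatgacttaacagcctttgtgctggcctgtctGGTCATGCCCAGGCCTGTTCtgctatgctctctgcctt
*Mcm7* (chr5:138611294-138611393, plus strand): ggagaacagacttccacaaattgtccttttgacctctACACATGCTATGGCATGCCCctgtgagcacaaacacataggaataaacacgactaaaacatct
*Rrm2* (chr12:25394488-25394587, plus strand): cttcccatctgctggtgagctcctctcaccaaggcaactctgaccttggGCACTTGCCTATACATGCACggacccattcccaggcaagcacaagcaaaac
The site had 1 mismatch at *Mad2l1* and *Ect2*, 2 at *Kif23* and *Ccne2*, and 3 at *Mcm7* and *Rrm2*. The *Mad2l1* and *Ect2* peaks were close copies of each other, with 95.3% identity over 106 bp. They belonged to a large family of similar peaks, with 840 further peaks of the list like that of *Mad2l1* and 731 like that of *Ect2*, counting as similar the windows that aligned over 100 bp or more with 80% or more identity. The *Ccne2* peak had 6 similar peaks, one *Cdt1* peak had 5, and 16 of the 20 member peaks had none. How reads were shared between such similar places was not tested.

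At 3 Group I peaks the same half-sites stood 1 base apart, which the search with adjoining half-sites passes over. They are shown with the intervening base in lower case.
*Cdc20* (chr4:118109896-118109916, plus strand): AGACAAGCTAaGGACACGCCG
*Mcm6* (chr1:130265397-130265417, plus strand): CAGCATGCTCaGGGCCTGTCT
*Rrm1* (chr7:109589472-109589492, plus strand): AGGCAGGCCCtGGGCATGCTG
The spaced sites of *Mcm6* and *Rrm1* had 2 mismatches, fewer than the adjoining sites of *Mcm7* or *Rrm2*, and that of *Cdc20* had 3.

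The Group III peaks at the starts of *Anln* and *Birc5* are shown because their sequence differs in kind from the peaks above, and the second *Birc5* peak, of Group I, because it lay only a short way upstream. Capitals mark the p53 site, present only in that of *Anln* among these, and the Group III peak of *Birc5* is the first of its pair.
*Anln* (chr9:22193660-22193759, plus strand): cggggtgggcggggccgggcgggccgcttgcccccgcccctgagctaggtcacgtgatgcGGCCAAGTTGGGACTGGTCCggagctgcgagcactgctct
*Birc5* (chr11:117710458-117710557, plus strand): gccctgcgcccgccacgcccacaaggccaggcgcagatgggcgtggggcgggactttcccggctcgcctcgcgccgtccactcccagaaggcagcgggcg
*Birc5* (chr11:117709819-117709918, plus strand): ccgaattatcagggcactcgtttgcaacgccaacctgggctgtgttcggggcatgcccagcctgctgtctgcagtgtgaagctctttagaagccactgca
The GC content 100 bp either side of the centre was 67.2% at *Anln* and 71.6% at the Group III peak of *Birc5*, against 55.7% at its Group I peak and 46.3% at the *Kif23* peak.

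A p53 peak lay within 10 kb of 16 of the 52 members (30.8%), against 15.6% of all protein-coding genes. The shares of the mitosis genes and of the replication genes were much alike, with 9 of 30 (30.0%) and 7 of 22 (31.8%). Within 1 kb the count was 10 of 52 (19.2%), against 6.13% of all protein-coding genes, with 6 of 30 mitosis genes and 4 of 22 replication genes. Thus 36 members, among them most of the cyclins, kinases and helicase subunits, had no peak within 10 kb. The same held for most protein-coding genes, given the 15.6% above. The median distance to the nearest peak was 28627.5 bp for the members and 74166 bp for all protein-coding genes. The members had a median of 4 annotated TSSs per gene, against 2 for all protein-coding genes, and a median promoter GC content of 59.5%, against 55.3%. With 1 TSS per gene, the count of members was again 16 and the background 13%. The part of promoter composition in the difference was not tested.

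**Figure D1:**
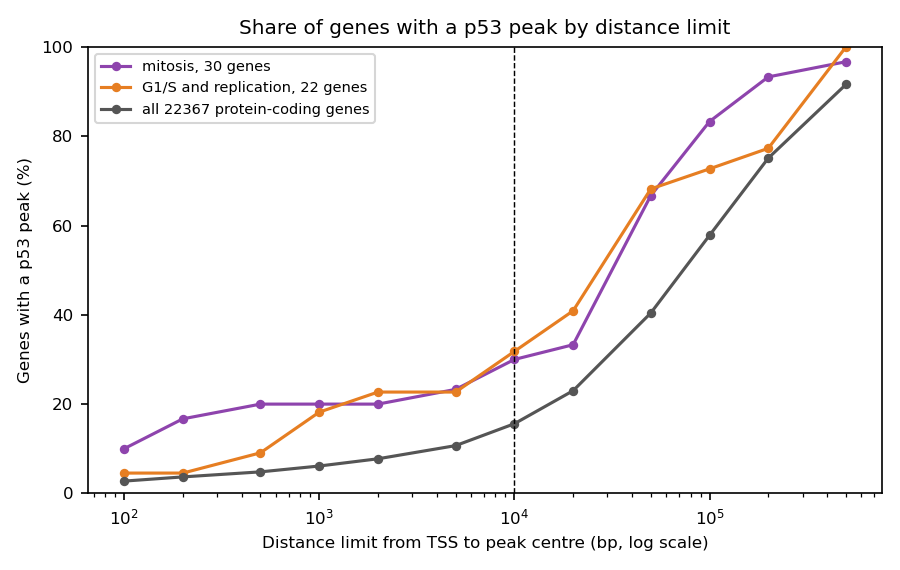
Share of genes with a p53 peak (%, vertical axis) against the distance allowed between TSS and peak centre (bp, log scale) for 30 mitosis genes, 22 G1/S and replication genes and all 22367 protein-coding genes. At the 10 kb limit (dashed line) the shares were 30.0%, 31.8% and 15.6%, and both member curves lay above that of all protein-coding genes at each distance drawn.

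By Group, 14 of 52 members (26.9%) had a Group I peak, against 12.4% of protein-coding genes. These were 7 mitosis genes and all 7 replication genes with a peak. A Group III peak lay within 10 kb of 3 members (5.77%), against 3.34%, and a Group II peak of 1 member (1.92%), against 0.554%. In all there were 20 peaks, none shared by members, with 12 members having 1 peak and 4 members having 2. Of the 20 peaks, 16 (80.0%) were in Group I, and 79.4% of the 3064 peaks near any protein-coding gene were. The peak numbers ran from 977 to 7253. The median number of the Group I member peaks was 3682, against 3212.5 for all Group I peaks near protein-coding genes, so the members' peaks were not concentrated among those with the largest gain after IR. Only *Cdt1* (977), *Ttk* (1179) and *Birc5* (1593) had a peak among the first 3000, and those 3 of 52 members (5.77%) stood beside 6.27% of protein-coding genes.

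Of the 20 peaks, 13 lay upstream and 7 downstream of the member's nearest TSS, and 12 lay within 1 kb of it. The member had the nearest protein-coding TSS at 19 peaks. The exception was the more distant *Cdt1* peak, which was 814 bp from a TSS of *Aprt*, an enzyme of adenine salvage. At 16 of the peaks no other protein-coding gene had a TSS within 10 kb.

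**Figure D2:**
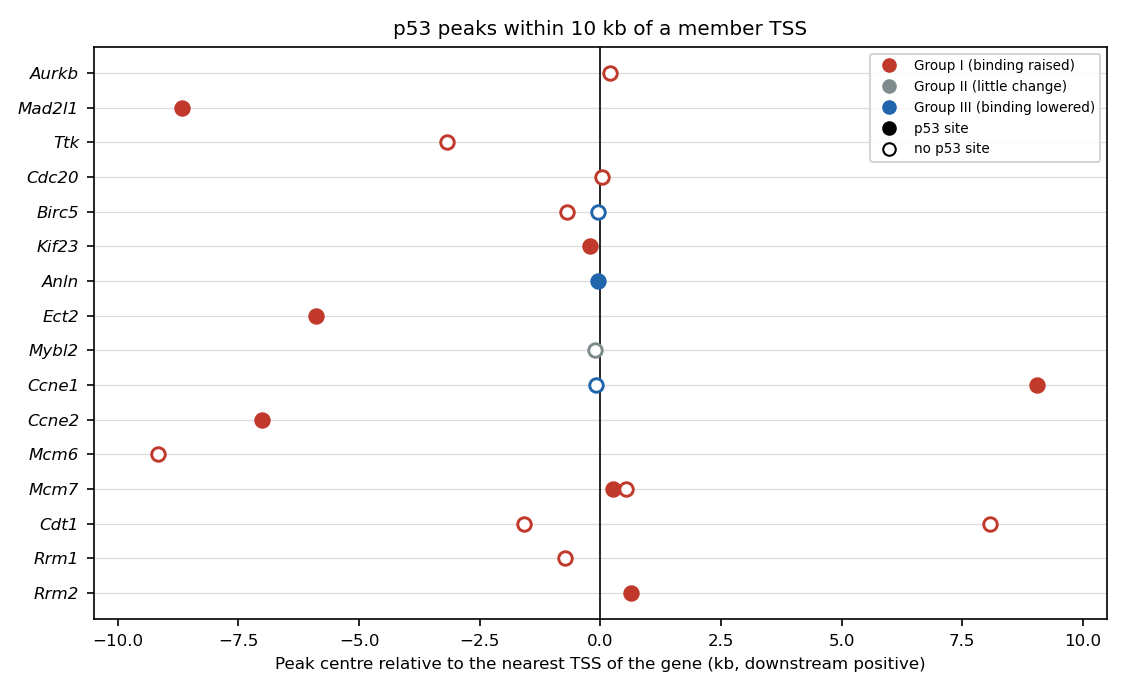
Position of the 20 p53 peaks relative to the nearest TSS of the 16 members that have one (kb, downstream positive), colored by Group, with filled circles for peaks with a p53 site. The 3 Group III peaks and the Group II peak crowd within 111 bp upstream of a TSS, whereas Group I peaks spread from 9168 bp upstream to 9040 bp downstream.

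None of the 6 genes of mitotic entry had a peak within 10 kb, a count too small to set apart from the 15.6% of all protein-coding genes. Their nearest peaks lay between 46426 and 520150 bp away, with a median of 92056 bp, beside 74166 bp for all protein-coding genes. *Cdk1*, the kinase that drives entry into mitosis, was the member farthest from any peak, at 520150 bp. Its B-type cyclin partners *Ccnb1* and *Ccnb2* were 103069 and 46426 bp from a peak, and *Ccna2*, the cyclin of S and G2 phase, 77732 bp. The phosphatases that activate Cdk1 were likewise distant, with *Cdc25b* at 85141 bp and *Cdc25c* at 98971 bp.

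Among the mitotic kinases and checkpoint genes, 4 of 9 had a peak, all of Group I, a class found within 10 kb of 12.4% of protein-coding genes. The *Cdc20* peak (number 3779, chr4:118109875-118109974) was centred 33 bp downstream of the TSS, over an untranslated stretch of exon in 1 of its transcripts. *Cdc20* activates the ubiquitin ligase that ends mitosis. The *Aurkb* peak (number 5508, chr11:68859335-68859434) was 192 bp downstream of its nearest TSS, in an exon or intron of 4 of the gene's 8 transcripts. *Aurkb* encodes the kinase of the chromosomal passenger complex, and its peak had neither an adjoining nor a spaced p53 site. The peak of *Ttk*, the kinase that starts spindle checkpoint signaling, had the largest gain after IR of the mitosis members (number 1179, chr9:83725067-83725166) and lay 3180 bp upstream. The peak of *Mad2l1*, a checkpoint protein that restrains Cdc20, lay 8667 bp upstream (number 3714). The other 5 had none within 10 kb. The distances were 26475 bp for *Plk1*, 27934 bp for *Aurka* and 28151 bp for *Bub1b*. *Plk4*, the kinase of centriole duplication, was 34088 bp from a peak and the checkpoint kinase *Bub1* 222226 bp.

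Of the 13 genes of chromosomes, spindle and cytokinesis, 4 had a peak, beside 15.6% of protein-coding genes, and 2 had a Group III peak, beside 3.34%. The *Kif23* peak (number 5424), with a 2-mismatch site, was centred 218 bp upstream of the TSS. *Kif23* encodes a kinesin of the central spindle. *Ect2*, which activates RhoA for furrow formation, had its peak 5888 bp upstream (number 6372). *Anln*, an actin-binding scaffold of the furrow, had a Group III peak 59 bp upstream (number 7253). *Birc5*, which encodes survivin of the chromosomal passenger complex, had peaks of opposite classes, one of Group III centred 58 bp upstream (number 6951) and one of Group I centred 697 bp upstream (number 1593). The number of *Birc5* peaks thus ran from one of the larger gains to a loss within 1 kb.

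The remaining 9 genes of this set had no peak within 10 kb. *Top2a*, which untangles sister chromatids, was the closest, with a Group II peak 18070 bp upstream (number 6796). The kinesin genes *Kif11*, *Kif20a* and *Kif2c* were 20362, 24848 and 31363 bp away. *Mki67*, the proliferation marker Ki-67, was 29104 bp from a peak, and *Prc1*, which bundles midzone microtubules, 61640 bp. Of the centromere proteins, *Cenpf* was 41605 bp, *Cenpa* 140517 bp and *Cenpe* 187306 bp from the nearest peak. Of the 2 transcription factors that drive mitotic genes, *Mybl2* had the only Group II peak of the members, 111 bp upstream (number 6783, chr2:162880263-162880362), and *Foxm1* was 87911 bp from a peak.

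**Figure D3:**
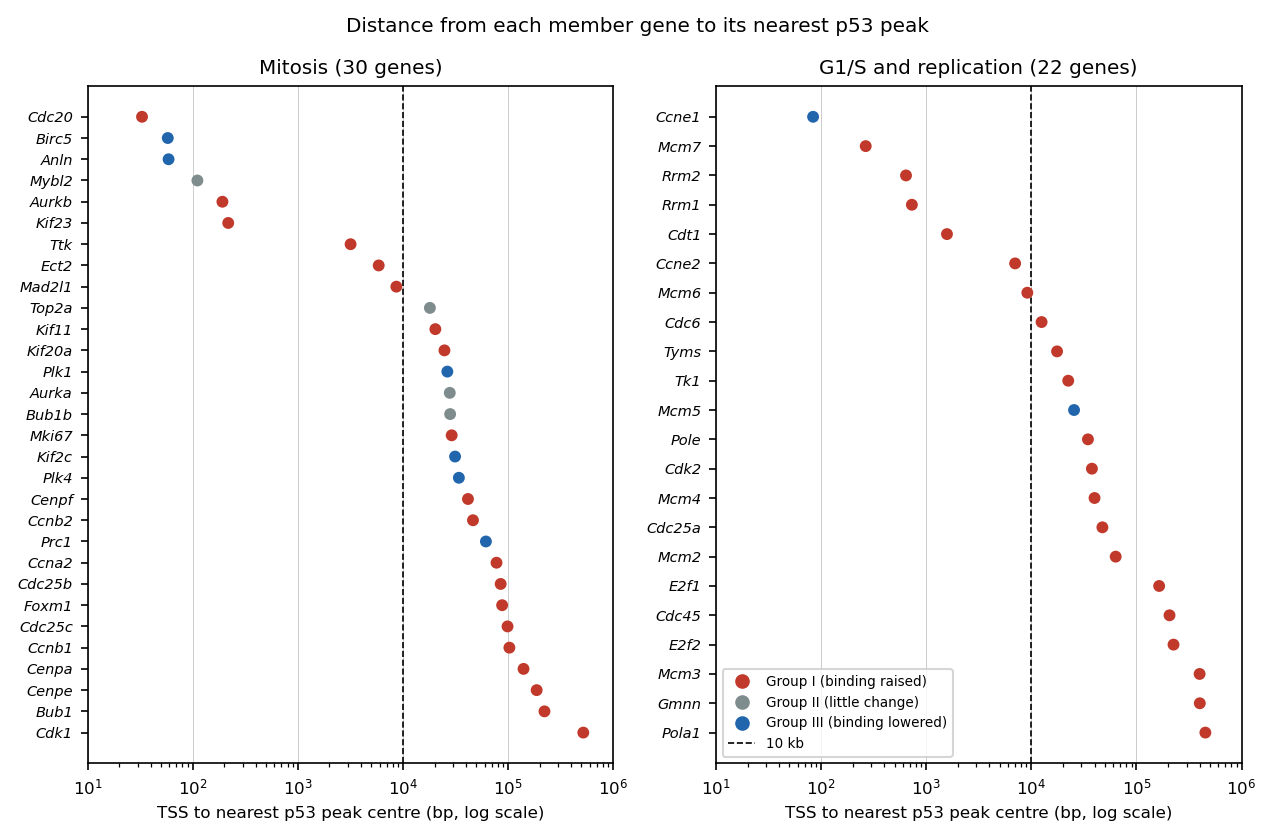
Distance from each of the 52 members to its nearest p53 peak (bp, log scale), colored by the Group of that peak, with the 10 kb limit dashed. Among mitosis genes 6 stand within 1 kb and none of them lies between 10 kb and the 18070 bp of *Top2a*, while the replication genes run more evenly from *Ccne1* at 84 bp to *Pola1* at 452915 bp.

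Of the 4 genes of G1/S cyclins, kinase and phosphatase, 2 had a peak within 10 kb, beside 15.6% of protein-coding genes. They were the E-type cyclin genes, which with Cdk2 open S phase. *Ccne1* carried a Group III peak 84 bp upstream (number 7032, chr7:38892588-38892687), with 78.6% GC and no adjoining p53 site. A Group I peak (number 5344, chr7:38875299-38875398) lay 9040 bp downstream of its nearest annotated TSS, beyond the end of the gene and 17205 bp from the TSS that most coding transcripts share. That second peak had a 3-mismatch site, and it was lost when only TSSs of protein-coding transcripts were used. *Ccne2* had a Group I peak 7018 bp upstream (number 3579). *Cdk2* itself was 37725 bp from the nearest peak, which was number 4 of the list, and the phosphatase gene *Cdc25a* 47467 bp. The G1/S transcription factors had none nearby, with *E2f1* at 164565 bp and *E2f2* at 225442 bp.

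Among the 10 genes of replication licensing and the helicase, 3 had a peak, all of Group I, beside 12.4% of protein-coding genes with a Group I peak. *Mcm7*, a subunit of the MCM helicase, had a pair of peaks inside the gene. One (number 6288) was 266 bp downstream of an annotated TSS and 2307 bp from the TSS that most coding transcripts share, in intron 1 or intron 2 depending on the transcript, and had the 3-mismatch site shown above. The other (number 5571, chr5:138606369-138606468) was 526 bp downstream of its nearest annotated TSS and 7232 bp from that main TSS, and had no site. By transcript it stood in intron 13, in intron 8 or in a non-coding exon, and it lay outside the other 7 transcripts. When the microRNAs of the *Mcm7* locus were looked up after the place of this peak was seen, its centre lay 131 bp from *Mir25*, 333 bp from *Mir93* and 547 bp from *Mir106b*. *Cdt1*, which loads the MCM helicase, had Group I peaks 1577 bp upstream (number 3297, chr8:125090289-125090388) and 8078 bp downstream (number 977, chr8:125099944-125100043). *Mcm6* had a peak 9168 bp upstream (number 3306, chr1:130265352-130265451) and was the last member inside the limit. The first outside it was *Cdc6*, another loader of the helicase, 12528 bp from a Group I peak (number 3717).

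The other helicase subunits were farther away. *Mcm5* was 25513 bp, *Mcm4* 39966 bp and *Mcm2* 63506 bp from a peak, and *Mcm3* 399160 bp. *Cdc45*, the helicase cofactor, was 206506 bp and *Gmnn*, the Cdt1 inhibitor geminin, 400856 bp from a peak. In all, 2 of the 6 MCM subunit genes had a peak within 10 kb, beside 15.6% of protein-coding genes.

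Of the 6 genes of nucleotides and polymerases, 2 had a Group I peak within 1 kb, beside 3.43% of protein-coding genes. Both belong to ribonucleotide reductase, the enzyme that supplies deoxynucleotides. For *Rrm1* the peak was centred 731 bp upstream (number 3650, chr7:109589429-109589528). For *Rrm2* it was 643 bp downstream of the nearest TSS, in intron 2 or intron 4 by transcript, and 1431 bp from the main TSS (number 3236). *Tyms*, thymidylate synthase, had its nearest peak at 17582 bp (Group I, number 4413). The peak nearest to *Tk1*, thymidine kinase, was the Group I peak of *Birc5*, 22462 bp away. The polymerase genes *Pole* and *Pola1* were 34594 and 452915 bp from a peak.

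A p53 site with adjoining half-sites was present at 8 of the 20 member peaks (40.0%). By class, 7 of 16 Group I member peaks had one (43.8%), and 49.0% of the 2432 Group I peaks near protein-coding genes did, so the share was near that background. All of the sites lay within 26 bp of the peak centre. Of the 3 Group III peaks, that of *Anln* had a site, with 3 mismatches, whereas 1.12% of the 534 Group III peaks near protein-coding genes, or 6 peaks, had any. The Group II peak of *Mybl2* had none. With up to 13 bases allowed between the half-sites, 15 of 20 member peaks had a site (75.0%), against 60.5% of all peaks near protein-coding genes. The 5 peaks still without one were those of *Aurkb*, *Mybl2*, the Group III peak of *Birc5*, the second *Mcm7* peak and the downstream *Cdt1* peak. Sites were found at 4 of 12 peaks within 1 kb of a TSS and at 4 of 8 peaks farther out. The 3 Group III peaks and the Group II peak were all among the nearer ones, so this split by distance is also one by Group.

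The Group III peaks of *Birc5*, *Anln* and *Ccne1* and the Group II peak of *Mybl2* had a GC content of 67.2% to 78.6% and a ratio of observed to expected CpG of 0.85 to 0.93. The median over all Group III peaks was 69.7% GC, and over all Group I peaks 48.3%, though most of the latter are not at promoters. The Group I member peaks nearest to a TSS varied, with 57.7% GC and a CpG ratio of 1.07 at *Cdc20*, 63.7% and 0.61 at *Aurkb*, and 46.3% and 0.65 at *Kif23*. The 4 peaks lay between 58 and 111 bp upstream of a TSS.

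Strong p53 sequences, with at most 1 mismatch, were about as common near members as near other genes. Within 10 kb of a TSS, 3 of 52 members (5.77%) had such a site, against 5.07% of all protein-coding genes. These were *Mad2l1*, *Ect2* and *Cenpe*. The first pair had a peak. The site 6032 bp upstream of *Cenpe*, a kinesin that holds chromosomes to the spindle, had none within 100 bp, and is shown for comparison.
*Cenpe* (chr3:134869485-134869504, plus strand): AAACATGTTTAATCATGCCC
Near all protein-coding genes, 422 of 1036 such sites had a peak (40.7%), and the rest had none.

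The promoters were then searched for the sequences through which DREAM binds, from 250 bases before to 50 bases after 1 TSS per gene, on both strands. The CHR was searched as TTTGAA or TTCGAA, and the E2F site as TTTCCCGC, TTTCGCGC, TTTGCCGC or TTTGGCGC. The CCAAT box, which often stands upstream of a CHR, and the GC box GGGCGG were counted in the same way. These words do not contain one another, and a match is a description of the sequence and no evidence of binding. The upstream 200 bases of 4 members are shown as examples, *Cdc20* and *Mcm6* with a p53 peak within 10 kb and *Top2a* and *Mcm5* without. Capitals mark CHR, E2F and CCAAT words on either strand, with ATTGG the reverse of CCAAT.
*Cdc20* (chr4:118109958-118110157, minus strand): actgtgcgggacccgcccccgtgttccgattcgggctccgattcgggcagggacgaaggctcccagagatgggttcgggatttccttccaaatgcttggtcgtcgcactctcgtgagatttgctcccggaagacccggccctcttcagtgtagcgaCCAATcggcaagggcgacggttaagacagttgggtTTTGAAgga
*Top2a* (chr11:98885504-98885703, minus strand): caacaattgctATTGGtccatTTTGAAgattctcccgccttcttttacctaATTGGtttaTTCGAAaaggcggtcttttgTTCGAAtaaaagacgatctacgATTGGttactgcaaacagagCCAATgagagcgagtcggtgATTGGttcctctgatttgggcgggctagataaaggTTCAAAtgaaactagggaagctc
*Mcm6* (chr1:130256234-130256433, minus strand): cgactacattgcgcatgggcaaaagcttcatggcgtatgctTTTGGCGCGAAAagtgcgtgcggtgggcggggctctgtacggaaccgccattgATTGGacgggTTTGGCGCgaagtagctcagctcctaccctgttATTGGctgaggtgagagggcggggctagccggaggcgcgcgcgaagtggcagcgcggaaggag
*Mcm5* (chr8:77633227-77633426, plus strand): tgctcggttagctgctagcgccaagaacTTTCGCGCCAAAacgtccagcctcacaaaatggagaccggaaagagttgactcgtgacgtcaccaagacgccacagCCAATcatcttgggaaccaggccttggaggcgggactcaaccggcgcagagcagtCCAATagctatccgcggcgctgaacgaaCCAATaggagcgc
The *Cdc20* sequence has a CHR starting 9 bases before the TSS, and that of *Top2a* has 4 CHR words among its CCAAT boxes. In *Mcm6* and *Mcm5*, overlapping E2F words on opposite strands form a single longer stretch of capitals.

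The mitosis and replication members, alike in their share with a p53 peak, differed in the share with a CHR and with an exact E2F word. A CHR stood in 22 of 30 mitosis promoters (73.3%) and in 2 of 22 replication promoters (9.09%), those of *Mcm2* and *Cdc45*, against 17.6% of all protein-coding promoters. An E2F site stood in 13 of 22 replication promoters (59.1%) and in 1 of 30 mitosis promoters (3.33%), that of *Cdk1*, against 2.80%. The E2F contrast rested on the exact words. With 1 of the 8 bases allowed to differ, 19 of 22 replication promoters (86.4%) and 21 of 30 mitosis promoters (70.0%) had a match, against 46.2%. Among the kinases and checkpoint genes 8 of 9 had a CHR, all but *Mad2l1*. Among the licensing and helicase genes 7 of 10 had an E2F site, among them *Mcm3*, *Mcm4*, *Mcm5* and *Mcm6*. A CCAAT box was found in 40 of 52 members (76.9%), against 37.8%, and a GC box in 41 (78.8%), against 43.9%. Both a CHR and a CCAAT box were found in 22 members (42.3%), against 7.31%. Further genes of the same pathways, listed beside the members, had a CHR in 21 of 37 mitosis promoters (56.8%) and 4 of 35 replication promoters (11.4%), and an E2F site in 4 of 37 (10.8%) and 7 of 35 (20.0%).

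**Figure D4:**
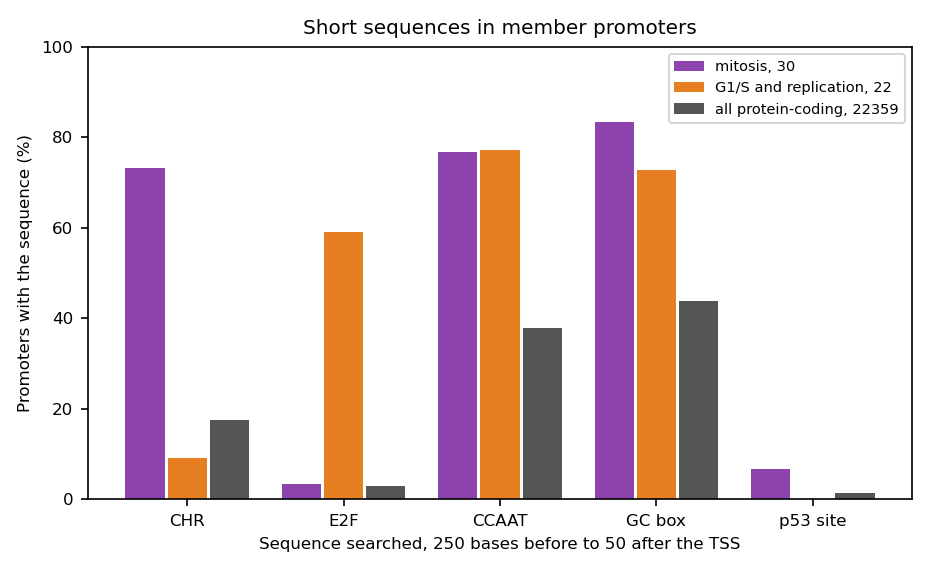
Share of promoters (%) that hold a CHR, an E2F site, a CCAAT box, a GC box or a p53 site, for 30 mitosis genes, 22 G1/S and replication genes and 22359 protein-coding promoters. The CHR bar is tall for mitosis only (73.3%) and the bar of the exact E2F words for replication only (59.1%), while CCAAT and GC boxes are above the background in both.

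Of the 16 members with a p53 peak, 8 (50.0%) also had a CHR or an E2F site in the promoter, as did 29 of the 36 members without a peak (80.6%) and 20.0% of all protein-coding promoters. With a peak, 6 had a CHR (37.5%), namely *Aurkb*, *Ttk*, *Cdc20*, *Kif23*, *Anln* and *Ect2*, and 2 an E2F site (12.5%), namely *Mcm6* and *Cdt1*. Without a peak, 18 had a CHR (50.0%) and 12 an E2F site (33.3%). The E2F shares, and with them those of a CHR or an E2F site, were counted with the exact words. With 1 of the 8 bases allowed to differ, 13 of 16 with a peak (81.2%) and 27 of 36 without (75.0%) matched, against 46.2% of all protein-coding promoters. The order of the E2F shares was then reversed. A CCAAT box stood in 9 of the 16 promoters with a peak (56.2%) and in 31 of the 36 without (86.1%), and a GC box in 15 of 16 (93.8%) and 26 of 36 (72.2%). These shares rest on few genes and are given as counts without a test. A p53 site within the promoter window was found in 2 of 52 members (3.85%), against 1.42% of all protein-coding promoters. These were *Kif23* and *Anln*, and both promoters also had a CHR, starting at position 3 counted from the TSS in *Kif23* and at positions 22 and 29 in *Anln*.

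As a reference for direct p53 targets, 12 of 14 genes that p53 activates in arrest and feedback had a peak within 10 kb (85.7%), with a median distance to the nearest peak of 393 bp. *Cdkn1a*, which encodes p21, had a Group II peak 49 bp upstream of its main TSS. A second Group II peak was 3532 bp downstream of that TSS and 739 bp downstream of an internal one. *Gtse1*, a G2 and S phase protein, had a Group I peak in its first intron, 25 bp upstream of an internal TSS and 214 bp downstream of the main one. *Mdm2*, which directs p53 to degradation, had a Group I peak 7 bp upstream of an internal TSS and 673 bp downstream of the main one, and a Group II peak 6978 bp upstream. A further list held subunits of DREAM, the pocket proteins and *Mybl1*, which is neither. Of its 13 genes 4 had a peak (30.8%), against 15.6% of protein-coding genes, namely *Rb1*, *Tfdp1*, *Lin54* and *Mybl1*. *Rb1*, the retinoblastoma protein, had Group I peaks 145 and 1018 bp upstream of its main TSS. Another Group I peak was 1860 bp upstream of an internal TSS, within the gene and 36255 bp downstream of the main one.

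The further mitosis genes had a peak in 9 of 37 cases (24.3%) and the further replication genes in 12 of 35 (34.3%), beside the 15.6% of all protein-coding genes. Among the former, *Spc25* of the kinetochore had a Group I peak 59 bp downstream of its nearest TSS, *Kif18b*, a microtubule-depolymerizing kinesin, one 166 bp downstream, and *Ckap2*, a spindle protein, one 193 bp upstream. The 3 peaks had p53 sites of 3, 3 and 2 mismatches. Among the replication genes, 5 of 35 had a Group III peak (14.3%), against 3.34% of protein-coding genes, those of *Orc5*, *Pold1*, *Chaf1b* and *Dbf4* at 22 to 87 bp upstream of a TSS and that of *Pcna*, the polymerase clamp, 2359 bp downstream of its nearest TSS and 5503 bp from its main TSS. The *Pcna* peak was 4 bp from a TSS of *5730494N06Rik* and the *Dbf4* peak 47 bp from one of *Slc25a40*, so another gene was nearer to each. None of these 5 Group III peaks had a p53 site.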

How the data were processed

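p53 ChIP-Seq peaks were analysed as deposited by the authors, in 1 list of positions and peak numbers without counts or signal. According to the submitters' processing notes, reads were mapped to mm9 with Bowtie 1.0.0 and peaks called with MACS 1.4.1. Whether the list covers both lines or Ba/F3 alone is described in both ways, and how libraries were merged is not given in the sources used here. H3K27ac signal was not analysed here. Group limits were the peak numbers that the study's Group sizes give (Group I to 6641, Group II to 6801). The members and gene lists were chosen with earlier results of these data known.

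Distances ran from peak centres to TSSs of GENCODE M1, and sequence came from mm9 (NCBIM37). Promoters used the TSS that most coding transcripts share, ties to the most upstream, and 22359 genes had one with sequence. BLAST+ 2.17.0, with a word size of 11 and an e-value limit of 1e-10, gave the similar peaks. The searches were tested on simulated data. No test was made, since conditions had 1 library each. Alternatives were other distances, TSS sets, peak subsets, merging, and other site and promoter searches. Named genes were all members with a peak, those with the nearest peak from 10 to 20 kb, the 3 farthest, up to 10 per further list, and any gene nearer to a member peak, and the distances of all other members were also given. Scripts ran in Python 3.11.15 with matplotlib 3.10.9, pysam 0.24.0, SciPy 1.17.1 and NumPy 2.4.6, and samtools 1.23.1 indexed the genome.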

Additional observations from a re-analysis of the deposited data

How the results depend on the processing

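Of 67 values recomputed, 43 stayed within the limits set for counts (1.5 times) or shares (their 95% interval) and 24 moved. With a limit of 1 kb, 10 members and 4 replication members had a peak, against 6.13% of protein-coding genes, and 7 members a Group I peak, against 3.43%. With 5 kb, 12 members (23.1%) had a peak, against 10.7%, and 9 had one of Group I. With 50 kb, 35 members (20 mitosis, 15 replication) had a peak, against 40.4%, and 29 had one of Group I, 5 of Group II and 9 of Group III, against 36.2%, 1.54% and 7.12%. The first 3000 peaks alone gave 3 members (2 mitosis, 1 replication), 3 with Group I, and a background of 6.27% for any peak, so the members stood above the background at each distance tried but not among the peaks with the largest gain. The member count was 16 with TSSs of coding transcripts, with 1 TSS per gene and with peaks nearest to that gene, where the background was 14.4%, 13% and 12.3%. Merging peaks within 1 kb left 2 members with a Group III peak, since the pair at *Birc5* joined under the lower number. At most 2 mismatches left a p53 site at 4 member peaks, and a spacer of 0 to 13 bases gave 15. The CHR count ranged from 22 to 32 and the E2F count from 12 to 18 over the other promoter choices, but letting 1 of 8 bases of the E2F words differ gave 40. No paired analysis was possible because each condition has 1 library and the list has no column of a single library. A gene without a peak here may hold binding under the limit of the peak calling, which the list does not state.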
